A study of Drosophila melanogaster with 6 samples.

Results

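The genes described here are 7 of the 17633 genes counted in Drosophila melanogaster ovaries: Hsc70-3, Gp93 and Pdi, which fold proteins in the endoplasmic reticulum (ER), Xbp1, a transcription factor of the unfolded protein response, Hsc70-4 and Hsp83, the main cytosolic chaperones, and Hsp60A, the mitochondrial chaperonin. They were chosen by name, and all 7 were found in the table and passed the filter on low counts. Whole ovaries of females aged 3 to 6 days were compared in 2 groups of 3 libraries. The first group was flamDeltaProm/flamDeltaProm, which lacks the promoter of flamenco (flam), an X-linked source of piRNAs against transposons in the follicle cells, on both X chromosomes. The second was flamDeltaProm over the FM7 balancer, so every fly carried at least 1 copy of the deletion. Both were labelled wild type at the other major chromosomes. The titles of the second group call it wild type, and the genotype field, which names FM7, was followed.

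Molecular chaperones bind unfolded proteins and help them to reach or keep their folded state. Unlike the heat shock genes that are almost silent until cells are stressed, the constitutive chaperones are expressed at high levels in every cell. In the ER, where secreted proteins such as yolk and eggshell proteins are folded, an excess of unfolded protein activates the sensor Ire1, which splices Xbp1 mRNA, and the resulting factor raises the expression of ER chaperone genes. The ovary is rich in chaperone mRNA also because nurse cells load it into the oocyte for the embryo.

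Library totals ran from 19564819 to 23181058 counts, and a member had between 4853 and 184884 counts in a library. Levels are given as CPM, the count scaled to a library of 1000000, with the library sizes adjusted by edgeR's TMM method. The genotypes separated on the first principal component, and FM7 replicate 2 stood apart on the second. flam RNA was lower in homozygotes, at 0.506 ± 0.255 CPM against 1.94 ± 0.0267 CPM in FM7 controls (SD, n = 3 each, adjusted p = 0.0119 by edgeR's quasi-likelihood test, for which an adjusted p under 0.05 counts as passing). Germline markers were abundant. Of 7 tested, edgeR called 1 higher, DESeq2 3 and limma-voom 0, and each called 0 lower. At an unadjusted p under 0.05 in edgeR, 3 were higher and 0 lower. Their median log2 fold change, homozygote over FM7 control, was 0.188. The edgeR count rose to 2 when homozygote 1 was dropped. It fell to 0 on dropping homozygote 2, homozygote 3, FM7 control 1 or FM7 control 2. The marker osk was at 1562 CPM in homozygotes and 1567 CPM in controls. On the same strand, 78.5% of its exons overlap lncRNA:osk, so its reads may be mixed. Follicle cell markers were present, and 7 of 9 were lower and 1 higher in homozygotes. Their summed level was 6434 to 9134 CPM in homozygotes and 15216 to 17163 CPM in controls. Chorion genes, which mark the last stages of egg chambers, summed to 12555, 3853 and 5466 CPM in homozygotes 1 to 3 and to 25694, 30219 and 28164 CPM in FM7 controls 1 to 3. None of 9 chorion genes passed edgeR's test, 6 were lower at an unadjusted p under 0.05, DESeq2 called 6 lower and limma-voom 1. Without homozygous replicate 1 or 2, edgeR called 5 or 4 of them lower. Haemocyte markers summed to 254 to 294 CPM in homozygotes and 211 to 220 CPM in controls, with 6 of 7 tested members higher. The marker He had 0 counts in controls, and crq made up most of both sums, at 215.9 and 208 CPM. Muscle sheath markers (736 to 945 CPM in homozygotes, 609 to 693 CPM in controls) had 7 of 10 members higher, and fat body markers (421 to 559.9 CPM in homozygotes, 287 to 313 CPM in controls) had 2 of 4 tested members higher, with Lsp1alpha at 0 counts in homozygotes. The muscle sheath count rested on single libraries: 3 and 2 were higher without homozygous replicates 2 and 3, and 0 and 1 without FM7 replicates 1 and 3. The fat body count was 1 without FM7 replicate 1 or 3. The part of these differences in the values below was not tested. In whole ovaries, fewer cells of a type and less RNA per cell cannot be told apart.

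Of the constitutive chaperone genes, Pdi fell in homozygotes and the other 5 did not pass the threshold, while the transcription factor gene Xbp1 rose. The test covered all genes and transposon families, with Benjamini-Hochberg adjustment over all of them. Of all 9150 genes tested, 19.5% passed, 11.7% higher and 7.75% lower, so 2 of 7 is near the background. These shares rested in part on single libraries. Over genes and families together, 1103 were higher and 712 lower. Without homozygous replicate 3 the counts were 548 and 227, and without FM7 replicate 1 they were 572 and 288. Leaving out homozygous replicate 2 gave 317 lower, and leaving out FM7 replicate 2 gave 427. Of these calls, 60.8% were higher with TMM and 83.0% with library sizes alone. In fits without 1 library, no member was higher except without FM7 replicate 3, and none was lower without homozygous replicate 3. The median log2 fold change of the 7 members was -0.11 (-0.02 with library sizes alone), against -0.01 for all genes tested. Homozygous and control values did not overlap for 4 of the 7, against 41.7% of all genes tested. Together the 7 genes took 1.60% to 1.61% of all counts in homozygotes and 1.45% to 1.71% in FM7 controls.

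**Figure D1:**
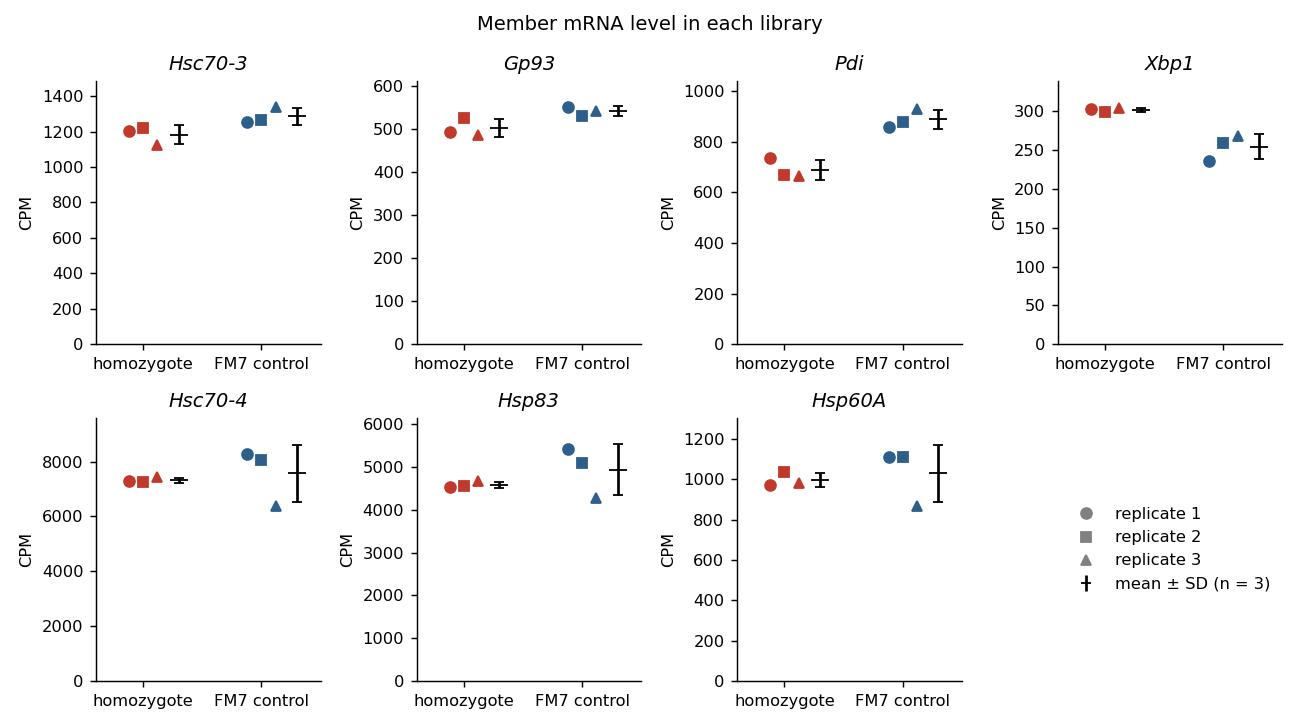
Level of each member in each library, in CPM (TMM-scaled), on axes that start at 0, with homozygotes (red) left of FM7 controls (blue) and the mean ± SD of 3 libraries beside each group. The groups do not overlap for Hsc70-3, Gp93, Pdi and Xbp1, and FM7 replicate 3 (blue triangle) is the lowest library for Hsc70-4, Hsp83 and Hsp60A.

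Per kilobase of annotated exon, the cytosolic pair was the most abundant. Hsc70-4 was at 2696 ± 32.4 CPM per kilobase in homozygotes and 2787 ± 384 in FM7 controls (SD, n = 3 each). Hsp83 followed at 1549 ± 25.6 CPM per kilobase in homozygotes and 1668 ± 201 in controls. Hsp60A, Hsc70-3 and Pdi formed a middle tier, from 296 to 402 CPM per kilobase in homozygotes and from 358 to 415 in controls. Within that tier the order differed: Pdi was below Hsc70-3 in every homozygous library and above it in every control library. Across libraries their ranges overlapped slightly in both groups. In homozygotes they were 313 to 340 for Hsc70-3 and 286 to 316 for Pdi, and in controls 349 to 373 and 368 to 400. Gp93 was at 176 ± 7.34 CPM per kilobase in homozygotes and 190 ± 3.70 in controls, and Xbp1 was the lowest, at 141 ± 1.30 in homozygotes and 119 ± 7.57 in controls. Exon lengths are those of Ensembl BDGP6.54, which may not be the annotation the authors counted with.

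Hsc70-3 (FBgn0001218, X, 11801696 to 11807117, minus strand) encodes the fly BiP, the Hsp70 chaperone of the ER lumen, which also keeps the stress sensors of the ER inactive while it is free to bind them. It was at 1204, 1221 and 1125 CPM in homozygotes 1 to 3 and at 1253, 1263 and 1339 CPM in FM7 controls 1 to 3. All homozygous libraries were below all controls, but the gap between the nearest libraries was smaller than the SD of either group. The fitted fold was 0.921 with a 95% interval of 0.824 to 1.03 (adjusted p = 0.260 by edgeR's quasi-likelihood test).

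Gp93 (FBgn0039562, 3R, 27948711 to 27952151, plus strand) encodes the Hsp90 chaperone of the ER, the counterpart of mammalian GRP94, known for folding a limited set of secreted and membrane proteins. It was at 493, 525 and 487 CPM in homozygotes and at 552, 531 and 542 CPM in FM7 controls. Homozygote 2 came within a few CPM of the lowest control without overlapping it. The log2 fold change was -0.11 (SE 0.0578, adjusted p = 0.207 by edgeR). Gp93 shares 101 bases of exon with CG4951 on the other strand, which had 11156 counts in all libraries against 69551 for Gp93. Reads of this pair may be mixed, since the strand setting of the counting was not given in the sources used here.

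Pdi (FBgn0286818, 3L, 15137738 to 15142840, minus strand) encodes protein disulfide isomerase, which forms and rearranges the disulfide bonds of secreted proteins. It was at 735, 667 and 666 CPM in homozygotes 1 to 3 and at 857, 877 and 931 CPM in FM7 controls 1 to 3. The highest homozygote was well below the lowest control. Pdi fell to 689 ± 39.7 CPM in homozygotes, against 888 ± 38.1 CPM in controls (SD, n = 3 each), a fold of 0.776 with a 95% interval of 0.695 to 0.867 (log2 fold change -0.37, SE 0.0699, adjusted p = 0.00978 by edgeR). Without homozygous replicate 3 the adjusted p was 0.0563, and in the other fits without 1 library Pdi passed. An antisense RNA, asRNA:CR45396, overlaps 21.5% of the Pdi exons and had 20 counts in all libraries against 104557 for Pdi. Follicle cell markers, given above, were lower in the same libraries, and their part in the Pdi value was not tested.

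Xbp1 (FBgn0021872, 2R, 21143545 to 21145750, plus strand) encodes the bZIP factor whose mRNA is spliced by Ire1 during ER stress. It was at 303, 299 and 304 CPM in homozygotes and at 236, 259 and 268 CPM in FM7 controls. The groups did not overlap. The coefficient of variation was 0.922% in homozygotes, less than the 1.18% that counting error alone gives, and 6.37% in controls. Xbp1 rose to 302 ± 2.78 CPM in homozygotes, against 254 ± 16.2 CPM in controls (SD, n = 3 each), a fold of 1.19 with a 95% interval of 1.08 to 1.30 (log2 fold change 0.25, SE 0.0587, adjusted p = 0.0220 by edgeR). The call rested on the full set of libraries: only without FM7 replicate 3 did it pass (adjusted p = 0.0138), and in the other 5 fits without 1 library the adjusted p was 0.0538 to 0.0864. Counts per gene do not separate spliced from unspliced Xbp1 mRNA, so they say nothing of its activation.

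Hsc70-4 (FBgn0266599, 3R, 15242687 to 15246614, plus strand) encodes the constitutive cytosolic Hsp70, which folds new proteins and uncoats clathrin vesicles. It was at 7286, 7259 and 7423 CPM in homozygotes 1 to 3 and at 8286, 8051 and 6372 CPM in FM7 controls 1 to 3. The homozygous libraries lay above FM7 replicate 3 and below the other controls, and the coefficient of variation was 1.20% in homozygotes and 13.8% in controls. The fitted fold was 0.967 with a 95% interval of 0.808 to 1.16 (adjusted p = 0.793 by edgeR).

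Hsp83 (FBgn0001233, 3L, 3192969 to 3197059, plus strand) encodes cytosolic Hsp90, which matures kinases and steroid hormone receptors and takes part in loading piRNAs. It was at 4525, 4561 and 4670.3 CPM in homozygotes and at 5434, 5100.1 and 4277 CPM in FM7 controls. The pattern was that of Hsc70-4, with FM7 replicate 3 below every homozygote and the other controls above them. The fitted fold was 0.929 with a 95% interval of 0.789 to 1.09 (adjusted p = 0.493 by edgeR).

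Hsp60A (FBgn0015245, X, 11108482 to 11112308, plus strand) encodes the chaperonin of the mitochondrial matrix. It was at 974, 1038 and 980.4 CPM in homozygotes and at 1113, 1111 and 867 CPM in FM7 controls. The same control library was the lowest of the 6. The fitted fold was 0.968 with a 95% interval of 0.824 to 1.14 (adjusted p = 0.773 by edgeR). Hsp60A and Hsc70-3 lie on X, where controls carry FM7 and homozygotes do not. The deletion and other differences between the X chromosomes cannot be told apart. This holds for members on every chromosome, Pdi and Xbp1 included, since the whole groups differ in FM7. Of 1605 tested X-linked genes, 20.4% passed the threshold.

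**Figure D2:**
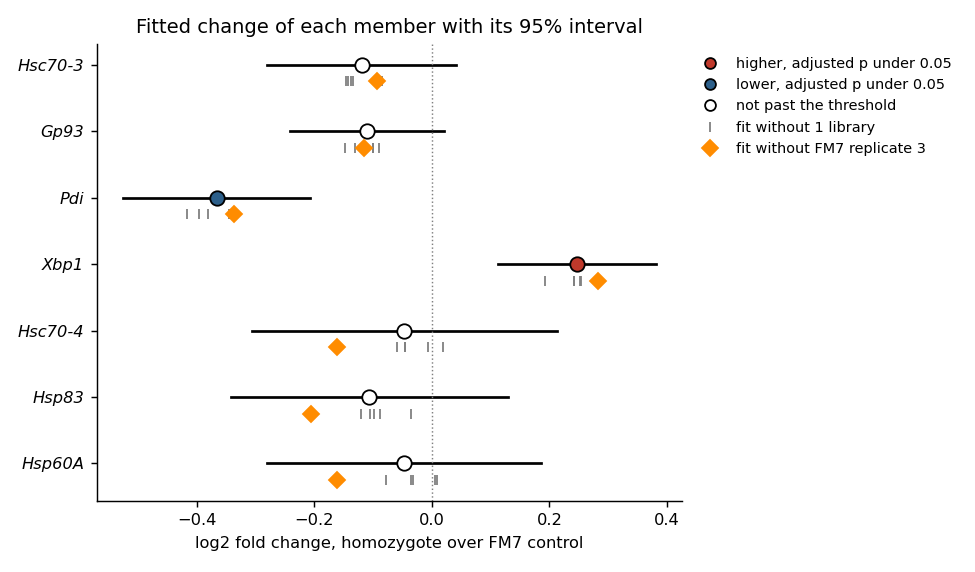
Fitted log2 fold change of each member, homozygote over FM7 control, with its 95% interval (black lines). Marks below each line are the fits without 1 library, and orange diamonds those without FM7 replicate 3, which lie to the left for Hsc70-4, Hsp83 and Hsp60A (-0.16, -0.20 and -0.16).

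The values of the cytosolic and mitochondrial members rested on FM7 replicate 3. It was the lowest library for all of them. Leaving it out therefore lowers their estimates by construction, and the calls without it are no separate support. Without FM7 replicate 3, Hsc70-4 had a log2 fold change of -0.16 (adjusted p = 0.0489) and Hsp83 of -0.20 (adjusted p = 0.0347), both past the threshold of edgeR's test. Hsp60A then had -0.16 (adjusted p = 0.0625). Members lower were then 3 of 7 (Pdi, Hsc70-4 and Hsp83), where 9.03% of all genes tested were lower, against 7.75% with all libraries. With all libraries the estimates were -0.05, -0.11 and -0.05. Relative to the mean of the 6 libraries, Hsc70-4, Hsp83 and Hsp60A were at -0.22, -0.15 and -0.22 in FM7 replicate 3 on the log2 scale. The ER members were not low there: in the same library Hsc70-3, Gp93 and Pdi were at 0.12, 0.06 and 0.25. The summed CCT and prefoldin genes, cytosolic folding machines that are no members, were also lowest in that library, at 5396 CPM against 5543 to 5908 CPM in the other 5. Of its 14 tested genes, CCT1, CCT2, CCT3 and CCT4 were lowest in that library and CCT7 was highest. Of 18 other tested genes of the cytosolic system, which encode mainly cochaperones of Hsc70-4 and Hsp83, 3 were lowest and 9 highest in FM7 replicate 3, among them Stip1 (521.8 CPM, against 426.6 to 460.1 CPM in the other 5 libraries) and the Hsp90 cochaperone gene p23 (786.6 CPM, against 549 to 668.3 CPM). Of 11 other tested genes of mitochondrial folding and proteolysis, 4 were lowest and 2 highest there. Of 18 other tested genes of ER folding, 4 were lowest and 12 highest there. Of all genes tested, 22.8% were lowest and 25.5% highest in that library. The summed chorion level of that library was between those of the other controls. Its follicle cell sum was 17163 CPM, above the other controls at 15374 and 15216 CPM. The part of cell types in these values was not tested.

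**Figure D3:**
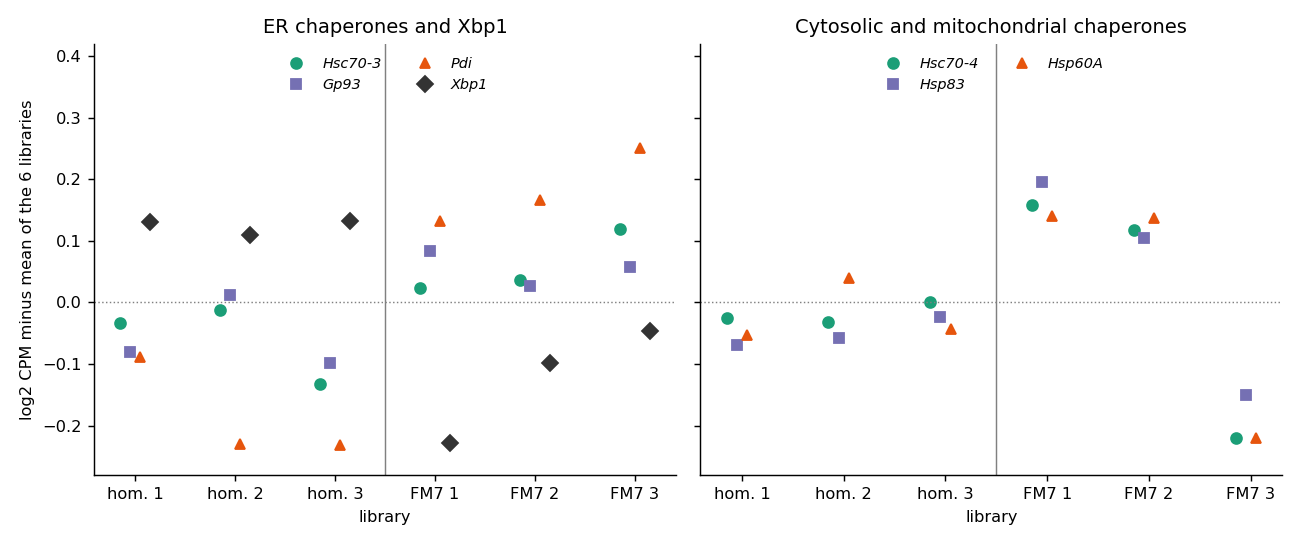
Level of each member in each library as log2 CPM minus its mean over the 6 libraries, for ER chaperones and Xbp1 (left) and for cytosolic and mitochondrial chaperones (right), homozygotes left of FM7 controls within each panel. Points are single libraries, and in FM7 replicate 3 the right-hand genes are at -0.22 to -0.15 while Hsc70-3, Gp93 and Pdi are above 0.

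Profiles of the members over the 6 libraries, which share their sizes and scaling, were compared with each other. The measure was the root mean square difference between centred log2 CPM values, where a small value means a like profile. It was 0.0373 between Hsc70-4 and Hsp60A, 0.0396 between Hsc70-4 and Hsp83 and 0.0439 between Hsc70-3 and Gp93, the 3 smallest of 21 pairs. Pdi and Xbp1, which went opposite ways, were the farthest apart, at 0.312. Among 6816 other tested genes and families with a mean of at least 10 CPM, the nearest to Hsc70-3 was Khc, which encodes the kinesin heavy chain (0.0138), and the nearest to Gp93 was Arl1, a Golgi GTPase gene (0.0137). Creld was the nearest to Pdi (0.0140), and dnc, a cAMP phosphodiesterase gene, to Xbp1 (0.0370). Nacalpha, a subunit of the nascent polypeptide-associated complex at the ribosome, was the nearest to Hsc70-4 (0.0225), Lamtor2 to Hsp83 (0.0222) and CG7246 to Hsp60A (0.0291). With so many genes and 6 libraries, close profiles are a description only.

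The ER and cytosolic members of each chaperone family were also compared within libraries, a measure that does not depend on scaling. The Hsc70-3 count was 0.165, 0.168 and 0.152 of the Hsc70-4 count in homozygotes 1 to 3 and 0.151, 0.157 and 0.210 of it in FM7 controls 1 to 3. The mean log2 ratio differed by -0.08 between homozygotes and controls (exact two-sided permutation p = 0.9). The Gp93 count was 0.109, 0.115 and 0.104 of the Hsp83 count in homozygotes and 0.102, 0.104 and 0.127 of it in controls, a difference of -0.01 on the log2 scale (exact permutation p = 1). After adjustment over these 2 ratios both p-values were 1, and 0.1 is the smallest p that 3 against 3 libraries allow. In both ratios FM7 replicate 3 was above the other 5 libraries, and without it the differences were 0.07 and 0.09, of the opposite sign.

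Among genes that work beside the ER members, 5 of 21 tested genes of ER folding were lower in homozygotes and none higher. Of all genes tested, 7.75% were lower and 11.7% higher. The list had a median log2 fold change of -0.12, or -0.04 with library sizes alone. By DESeq2 and limma-voom none was higher either, and none was higher at an unadjusted p under 0.05 by edgeR. DESeq2 called 7 lower. Besides Pdi, the lower genes were wbl, an ERp29-type protein needed in follicle cells for dorsoventral patterning (log2 fold change -1.12, SE 0.0995), Creld (-0.38, SE 0.0569), Manf, a secreted ER stress factor (-0.32, SE 0.0613), and Grp170, the nucleotide exchange factor of BiP (-0.21, SE 0.0616). Grp170 was the fifth by size and was chosen after its values were seen. It passed in 1 of 6 fits without 1 library, and its adjusted p reached 0.163, whereas wbl, Manf and Creld passed in all 6. Without homozygous replicate 3, 3 genes of the list were lower. The lectin chaperone genes had close means in both groups: Calr was at 798 ± 21.3 CPM in homozygotes and 797 ± 20.4 CPM in controls, and Cnx99A at 294 ± 13.8 and 292 ± 21.2 CPM (SD, n = 3 each). The summed level of the list was 5649 to 5919 CPM in homozygotes and 6257 to 6623 CPM in controls. The follicle cell and chorion sums given above were also lower in every homozygote than in every control. Within groups the sums ran together only in part. Homozygote 2 had the highest ER folding sum of its group (5919 CPM) and the lowest follicle cell and chorion sums (6434 and 3853 CPM). Among controls, FM7 replicate 2 had the lowest ER folding and follicle cell sums (6257 and 15216 CPM) and the highest chorion sum (30219 CPM). FM7 replicate 3 had the highest ER folding and follicle cell sums of the controls (6623 and 17163 CPM). The part of those cell types in the ER folding sum was not tested.

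The sensors and factors of the unfolded protein response went both ways, with 3 of 9 higher and 1 lower. Of all genes tested, 11.7% were higher and 7.75% lower. The list had a median log2 fold change of -0.02, or 0.06 with library sizes alone. Apart from Xbp1, Thor, a translation repressor gene induced by the PERK and ATF4 branch and by other stresses, was higher (0.54, SE 0.136, adjusted p = 0.0354), as was Ire1 (0.20, SE 0.0586, adjusted p = 0.0472). Gcn2, a kinase gene of the amino acid response, was lower (-0.20, SE 0.0562, adjusted p = 0.0397). PEK, which encodes PERK, was at 136.5 to 145.8 CPM in homozygotes and 129.4 to 150.1 CPM in controls. Atf6 and crc, which encodes fly ATF4, had log2 fold changes of -0.20 and -0.16 that did not pass, and 73.5% of the crc exons overlap CG46314 on the same strand, so its reads may be mixed. When homozygous replicate 2, homozygous replicate 3, FM7 replicate 1 or FM7 replicate 2 was left out, no gene of this list passed in either direction by edgeR, and without homozygous replicate 1, 1 was higher and 1 lower. Without FM7 replicate 3, 2 were higher and 2 lower. With all libraries DESeq2 called 2 higher and 2 lower (Xbp1, Thor, crc and Gcn2).

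Of 16 genes of ER translocation and ER-associated degradation, 2 were lower and none higher, where 7.75% of all genes tested were lower. Their median was -0.06, or 0.02 with library sizes alone. None was higher by DESeq2 or limma-voom, or by edgeR at an unadjusted p under 0.05. TRAM, a translocon component gene, was lower (-0.32, SE 0.0481, adjusted p = 0.00422) and passed in every fit without 1 library. TER94, the ATPase that extracts proteins from the ER membrane, was lower (-0.25, SE 0.0707, adjusted p = 0.0393) and passed in 1 of those 6 fits, that without FM7 replicate 3. Edem1 and Herp, genes of the degradation machinery, had close means in both groups, with Edem1 at 63.1 ± 1.59 CPM in homozygotes and 64.6 ± 3.06 CPM in controls and Herp at 57.8 ± 2.12 and 59.2 ± 2.50 CPM (SD, n = 3 each).

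The cochaperones of Hsc70-4 and Hsp83 were mostly not past the threshold. Of 20 tested genes of the cytosolic Hsp70 and Hsp90 system, Hsc70-4 and Hsp83 included, 1 was higher and 1 lower. The same held for the 18 without these members, where 11.7% of all genes tested were higher and 7.75% lower. The median of the list was -0.05, or 0.04 with library sizes alone. DESeq2 called none higher and 2 lower. The lower gene was STUB1, the ubiquitin ligase of the chaperone system (-0.27, SE 0.0571, adjusted p = 0.0139), and it did not pass without homozygous replicate 3 (adjusted p = 0.0681). The higher one was Hsc70-2, another Hsp70 family gene, at 1.22 ± 0.319 CPM in homozygotes and 0.505 ± 0.182 CPM in controls (SD, n = 3 each, log2 fold change 1.28, adjusted p = 0.0473). It passed in 1 of 6 fits without 1 library, and reads shared with related genes could alter its count. Stip1, which joins Hsp70 to Hsp90, was at 435 ± 9.68 CPM in homozygotes and 480.1 ± 36.1 CPM in controls, and Hsp110, the exchange factor, at 562 ± 28.2 and 532 ± 21.2 CPM (SD, n = 3 each). Without FM7 replicate 3, 4 genes of the list were lower by edgeR: Hsc70-4, Hsp83, STUB1 and nudC.

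None of 14 CCT and prefoldin genes passed by edgeR, DESeq2 or limma-voom in either direction, and at an unadjusted p under 0.05 in edgeR 2 were lower and 0 higher. Their median was -0.05, or 0.03 with library sizes alone. The 8 subunits of the CCT chaperonin, which folds actin and tubulin, had log2 fold changes from -0.10 to 0.02. Without FM7 replicate 3, CCT5, Pfdn4 and Pfdn5 were lower. Likewise none of 12 tested genes of mitochondrial folding and proteolysis passed by edgeR, DESeq2 or limma-voom, and at an unadjusted p under 0.05 in edgeR 1 was higher and 1 lower. Log2 fold changes ran from -0.18 to 0.10, with a median below 0 (-0.025) that was 0.06 with library sizes alone. CG11267, the Hsp10 partner of Hsp60A, was at 289 ± 5.40 CPM in homozygotes and 295 ± 24.1 CPM in controls, and Hsc70-5, the mitochondrial Hsp70, at 401 ± 14.3 and 407 ± 8.75 CPM (SD, n = 3 each). Without FM7 replicate 3, ClpP was lower. Of the other Hsp60 genes, Hsp60C had 5 counts in homozygotes and 6 in controls, and Hsp60B and Hsp60D had none in any library.

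**Figure D4:**
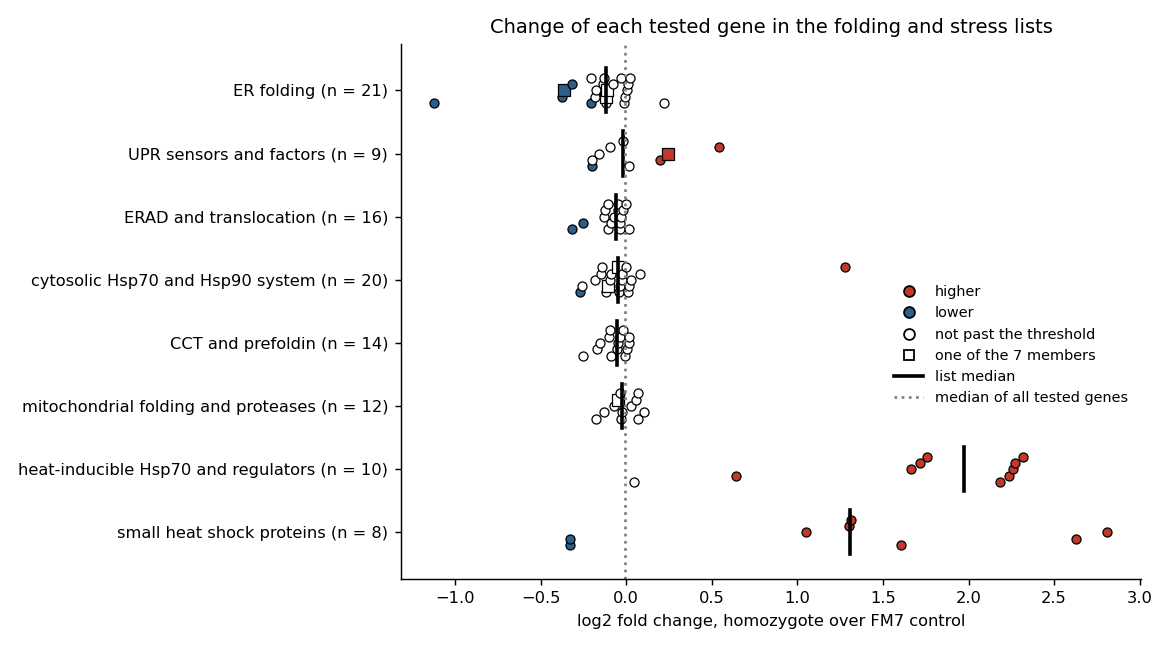
Log2 fold change, homozygote over FM7 control, of each tested gene in 8 lists, with squares for the 7 members, black bars for list medians and a dotted line for the median of all tested genes (-0.01). The 6 upper lists centre between -0.12 and -0.02, and the heat-inducible and small heat shock genes at 1.97 and 1.31.

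The heat-inducible relatives of these chaperones had other values in the same libraries. Of 10 genes for inducible Hsp70 proteins and their regulators, 9 were higher and none lower, where 11.7% of all genes tested were higher. Their median log2 fold change was 1.97. DESeq2 and limma-voom also gave 9 higher and 0 lower, and none was lower at an unadjusted p under 0.05 in edgeR. Hsp68, an inducible Hsp70 gene, was at 108 ± 30.4 CPM in homozygotes and 21.7 ± 7.59 CPM in FM7 controls (SD, n = 3 each, log2 fold change 2.32, SE 0.367, adjusted p = 0.0178), and it did not pass in 3 of 6 fits without 1 library (adjusted p up to 0.0665 by edgeR). Hsp70Bbb (2.27), Hsp70Ba (2.26) and Hsp70Bc (2.24) followed and did not pass in 2 to 3 of those fits. Their sequences are nearly identical, and reads may be shared among them. Hsp70Aa (1.72), Hsp70Ab (1.66), DnaJ-1 (0.64) and stv (1.76), named after their values were seen, passed in all 6. Hsf, the heat shock factor gene, was at 154 ± 2.86 CPM in homozygotes and 149 ± 7.40 CPM in controls. The summed level of this list was 1479 to 1879 CPM in homozygotes and 647 to 753 CPM in controls. The count of higher genes was 4 without homozygous replicate 3 or FM7 replicate 1 and 5 without FM7 replicate 2. FM7 replicate 3 was the lowest library for 8 of the 10 genes and the highest for 1.

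Of 8 tested small heat shock genes, 6 were higher and 2 lower, with a median of 1.31. Of all genes tested, 11.7% were higher and 7.75% lower. The summed level of the list was lower in homozygotes, at 1850 to 2041.5 CPM against 2254 to 2322 CPM in controls. FM7 replicate 3 was the lowest library for 4 of the 8 genes and the highest for 1. Hsp22 and CG4456 are both among the 6 higher genes. Hsp67Bc (2.81), Hsp67Ba (2.63), Hsp23 (1.60) and Hsp22 (1.31) led, and Hsp22 lies wholly within exons of CG4456, so this pair shares reads. An antisense RNA, asRNA:CR43481, overlaps 75.9% of the Hsp67Ba exons and had 2060 counts in all libraries against 529 for Hsp67Ba, so the Hsp67Ba value may hold its reads. Hsp26 and Hsp27, which are known to be made in the ovary without stress, were the lower pair: Hsp26 was at 947 ± 38.0 CPM in homozygotes and 1187 ± 75.9 CPM in controls, and Hsp27 at 827 ± 44.3 and 1040.0 ± 55.7 CPM (SD, n = 3 each). The Hsp27 call was lost without homozygous replicate 1 or 3 (adjusted p up to 0.0868), and that of Hsp26 in 4 of 6 fits without 1 library (up to 0.0997). Whether the constitutive and inducible genes differ as sets was not tested.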

How the data were processed

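RNA was taken from whole ovaries, and polyA libraries that keep the strand were prepared, per the labels' protocols. The authors deposited counts as whole numbers without normalisation, 1 row for each gene or transposon family. The submitters' processing notes name STAR 2.7.8a, featureCounts 2.0.1 and DESeq2 1.30.1 but not their roles. Genome build, annotation and treatment of multiply mapping reads were not given in the sources used here.

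The table lists 17633 genes and 127 families. Symbols, positions and exon lengths came from Ensembl release 115 (BDGP6.54), and 35 identifiers had no match. Of 173 entries in the gene lists, 171 were found, 12 through a synonym. The members and lists were chosen with earlier results of these data known. The counts went into edgeR 4.0.16 under R 4.3.3 (TMM, filterByExpr by group, robust quasi-likelihood fit), with Benjamini-Hochberg adjustment over 9229 genes and families and a threshold of 0.05. Fold changes are homozygote over FM7 control. The SE is the log2 fold change over the root of the F statistic, and 95% intervals use it with the fit's degrees of freedom. The procedure was tested on simulated data. Ratios were tested with exact permutation tests in SciPy 1.17.1. Alternatives were other scalings, no filter, DESeq2 1.42.0, limma-voom (limma 3.58.1), a replicate block and leaving out each library. Replicates differed by more than sampling noise (chi-square over its degrees of freedom, 8.18 to 38.9), and nothing says they came from separate pools of flies. The p-values therefore measure only how far these libraries spread, which may be technical.

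Named were the 7 members, up to 4 called genes of each folding or stress list by the size of the change, and the nearest profile of each member. Called genes of the marker lists were not named. The genes DIP1, tj and w were planned with flam as checks of the labels. They were also lower, at log2 fold changes of -0.40, -0.87 and -4.715, and DIP1 did not pass with limma-voom. Other list genes named beside them were chosen after their values were seen.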

Additional observations from a re-analysis of the deposited data

How the results depend on the processing

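Of the 7 members, Hsc70-3, Gp93, Pdi and Hsp83 kept their direction under all 13 alternatives. Xbp1 kept its direction too, and with the replicate block it was at 0.249 with an adjusted p of 0.0544 by edgeR, so 0 members were then higher. Hsc70-4 and Hsp60A, near 0 in the reported fit, were at 0.037 and 0.038 with library sizes alone. In fits without 1 library, the log2 fold change was -0.42 to -0.34 for Pdi, 0.19 to 0.28 for Xbp1, -0.16 to 0.02 for Hsc70-4 (0.018 without FM7 replicate 1), -0.205 to -0.036 for Hsp83 and -0.16 to 0.01 for Hsp60A (0.008 and 0.005 without FM7 replicates 1 and 2). Members higher were 0 to 1 and lower 0 to 3. The ratio of Hsc70-3 to Hsc70-4 differed by -0.170 to 0.068 and that of Gp93 to Hsp83 by -0.071 to 0.089 (0.023 without homozygous replicate 3). The cause of these shifts was not tested.

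Over all genes and families, with 1103 higher and 712 lower, the counts were 548 to 1009 higher and 227 to 855 lower without 1 library. The replicate block gave 700 and 349, and library sizes alone 323 lower. Deviations from group means gave no sign that the replicate numbers pair the libraries. They correlated at -0.303, -0.071 and -0.0387 for numbers 1, 2 and 3, and no library correlated best with its own number. With 3 libraries in each group the deviations are tied to each other, so this check cannot exclude a shared preparation. The labels do not state a pairing, and whether there was one is not known. For the 2 ratios the block leaves the difference as it is by construction (-0.08 and -0.01).

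Without 1 library, the unfolded protein response list had 0 to 2 higher and 0 to 2 lower, ER folding 3 to 5 lower, translocation and degradation 1 to 2 lower, the cytosolic system 0 to 1 higher and 0 to 4 lower, CCT and prefoldin 0 to 3 lower, the mitochondrial list 0 to 1 lower, the inducible Hsp70 list 4 to 9 higher and small heat shock genes 0 to 2 lower. With the replicate block, these lists had 1 higher and 0 lower (unfolded protein response), 1 lower (translocation), 0 higher (cytosolic), 1 lower (CCT and prefoldin), 4 higher (inducible Hsp70) and 0 lower (small heat shock). With library sizes alone, 0 unfolded protein response genes, 1 translocation gene, 0 cytosolic genes and 1 small heat shock gene were lower, and 1 mitochondrial gene was higher. Upper quartile scaling gave 0 and 1 lower in the unfolded protein response and translocation lists. Without the filter, 1 unfolded protein response gene and 0 cytosolic genes were higher and 1 CCT or prefoldin gene was lower. DESeq2 gave 2 lower in the unfolded protein response list and 0 higher and 2 lower in the cytosolic list, where limma-voom gave 0 higher. Counting error exceeded the spread between libraries for Xbp1 in homozygotes, and the number of libraries limits the precision.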
